A study of Mus musculus with 76 samples.

Results

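The receptors described here are 9 G protein-coupled receptor genes through which peptides, serotonin and endocannabinoids act on hypothalamic neurons. They are Npy1r and Npy2r for neuropeptide Y, Mc3r and Mc4r for melanocortins, Oprm1 and Oprl1 of the opioid family, Htr2c and Htr1b for serotonin, and Cnr1 for cannabinoids. They were taken by name as 9 of the 56980 genes of a deposited count table, of which 8 were counted in some cell and 7 reached 5 counts or more in 3 or more cells. The table covers 76 hypothalamic cells whose content was drawn into the pipette after a patch-clamp recording (Patch-seq). The cells came from male Pomc CreERT2;tdTomato;Pomc-eGFP mice, although the description of the Patch-seq step names only Pomc CreERT2;tdTomato. In these mice, tamoxifen given in adulthood lets a Cre driven by Pomc promoter elements switch on tdTomato for good, and a separate transgene makes eGFP from the Pomc promoter. A traced cell with eGFP was called Pomc+ and a traced cell without it was called Ghost, so both labels share the tracing alleles and the tamoxifen. Mice ate chow (CD) or a high-fat diet (HFD) for several months. There were 23 Pomc+ CD, 15 Ghost CD, 19 Pomc+ HFD and 19 Ghost HFD cells. No label names the mouse of a cell, so each combination of eGFP and diet counts as 1 sample, no difference between groups has a replicate check, and no test was made.

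Cells that make pro-opiomelanocortin (Pomc) release melanocortins, which lower food intake by acting on MC3R and MC4R, and neighbouring AgRP neurons oppose them with AgRP, neuropeptide Y and GABA. The NPY receptors, the mu-opioid and nociceptin receptors, HTR1B and CNR1 couple mainly to inhibitory Gi/o proteins, MC3R and MC4R to stimulatory Gs, and HTR2C to Gq. The same cell can therefore carry receptors for brakes and for excitatory input, and the comparisons ask which receptor transcripts are counted in traced cells, together or apart, with and without eGFP and on each diet.

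Cells differed widely in depth. The total count of a cell ran from 4057 to 1452605, with a median of 322652, and the number of genes counted ran from 548 to 9808, with a median of 2670.5. The median total was 339691 in Pomc+ CD, 123528 in Ghost CD, 393797 in Pomc+ HFD and 333785 in Ghost HFD cells. A single gene without a symbol, ENSMUSG00000119584, held 35.8% of all counts, and its share of a cell's counts ran from 5.48% to 77.4%. CPM, a gene's count scaled to a total of 1000000 per cell, is relative to the total that includes it. Intervals below are exact at 95% (Clopper-Pearson for shares, Poisson for summed counts), cover counting error only, and for shares concern cells with a count, not cells expressing the gene. For calls of 2-fold, a group without a count was set at 3 counts of its summed total. On a mean of cell CPM this is a convention and no bound, since 1 count in the shallowest Ghost CD cell would alone give the group a mean of 16.4 CPM. Folds of the CPM of summed counts, which weight deep cells more, set a group at 0 to the same 3 counts. They were added after the data were seen. They are no bound either, since the exact interval of 0 counts reaches 3.69 counts and the other group's counting error is left out.

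Neuronal transcripts were counted in 73 of the 76 cells, and Pomc in cells of both labels. All 6 neuronal markers were counted in every group, a median of 5 of them in a cell, with Snap25 the most abundant at a mean of 664 CPM. Pomc was counted in 22 of 23 Pomc+ CD, 14 of 15 Ghost CD, 19 of 19 Pomc+ HFD and 18 of 19 Ghost HFD cells. Its median was 6176 CPM in Pomc+ CD and 2291 CPM in Ghost CD cells, but 2206 CPM in Pomc+ HFD and 4171 CPM in Ghost HFD cells. The absence of eGFP thus went with a lower median of Pomc on CD and with a higher one on HFD, and it did not mark cells without Pomc counts.

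Of the NPY receptors, Npy1r, the postsynaptic Y1 receptor (ENSMUSG00000036437, chromosome 8, 66697192 to 66706792 in GRCm38), was counted in more cells than any of the other members, 35 of 76 (46.1%, interval 34.5 to 57.9). By group this was 11 of 23 Pomc+ CD (47.8%, interval 26.8 to 69.4), 8 of 15 Ghost CD (53.3%, interval 26.6 to 78.7), 8 of 19 Pomc+ HFD and 8 of 19 Ghost HFD cells (each 42.1%, interval 20.3 to 66.5). The 4 intervals overlapped. Thinned to 40000 counts, the expected shares were 45%, 51.2%, 37.3% and 32.2% in the same order. These cover the 21, 12, 18 and 17 cells at least that deep. Shallower cells, among them 657 and 659 with Npy1r, were left out. In cells with a count, Npy1r ran from 2.51 to 967 CPM with a median of 278 in Pomc+ CD, and from 5.14 to 867 CPM with a median of 156 in Ghost CD cells. It ran from 1.73 to 497 CPM with a median of 183 in Pomc+ HFD, and from 3.83 to 388 CPM with a median of 184 in Ghost HFD cells. Within each diet the ranges of the labels overlapped over most of their extent, while both reached higher on CD than on HFD, and the highest values on CD belonged to 1 cell of each label, cell 660 (Pomc+) and cell 668 (Ghost).

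Mean CPM of Npy1r, zeros included, was 145 in Pomc+ CD, 119 in Ghost CD, 75.4 in Pomc+ HFD and 72.9 in Ghost HFD cells, with an SD over cells between 127 and 253. The SD exceeded the mean in every group. The log2 ratio of HFD to CD was -0.94 in Pomc+ and -0.70 in Ghost cells, the latter turning to 0.16 without cell 668 and to 0.12 with the authors' normalized counts. The summed counts were 1820 (interval 1737 to 1906) in Pomc+ CD, 461 (420 to 505) in Ghost CD, 573 (527 to 622) in Pomc+ HFD and 575 (529 to 624) in Ghost HFD cells.

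Npy2r, the Y2 receptor that often sits on the NPY-releasing terminal itself (ENSMUSG00000028004, chromosome 3), was counted in 19 of 76 cells (25%, interval 15.8 to 36.3). These were 7 Pomc+ CD, 5 Ghost CD, 4 Pomc+ HFD and 3 Ghost HFD cells. All 19 had at least 5 counts, so a stricter rule for detection removed none of them. In the counted cells Npy2r ran from 39.1 to 323 CPM in Pomc+ CD, from 31.6 to 247 CPM in Ghost CD, from 12.7 to 183 CPM in Pomc+ HFD and from 16.8 to 201 CPM in Ghost HFD cells. The 3 Ghost HFD cells had 16.8, 19.8 and 201 CPM, and cell 637, with 9808 genes the richest cell of the table, gave 84.6% of the group's summed CPM. The mean was 45.4 CPM in Pomc+ CD against 16 CPM in Pomc+ HFD (log2 ratio -1.51, and -2.76 without cell 672), and 32.3 CPM in Ghost CD against 12.5 CPM in Ghost HFD cells (log2 ratio -1.37, but -3.99 without cell 637 and -0.44 without cell 659). For Ghost cells the direction turned with the authors' normalized counts (0.28) and with summed counts (0.93).

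**Figure D1:**
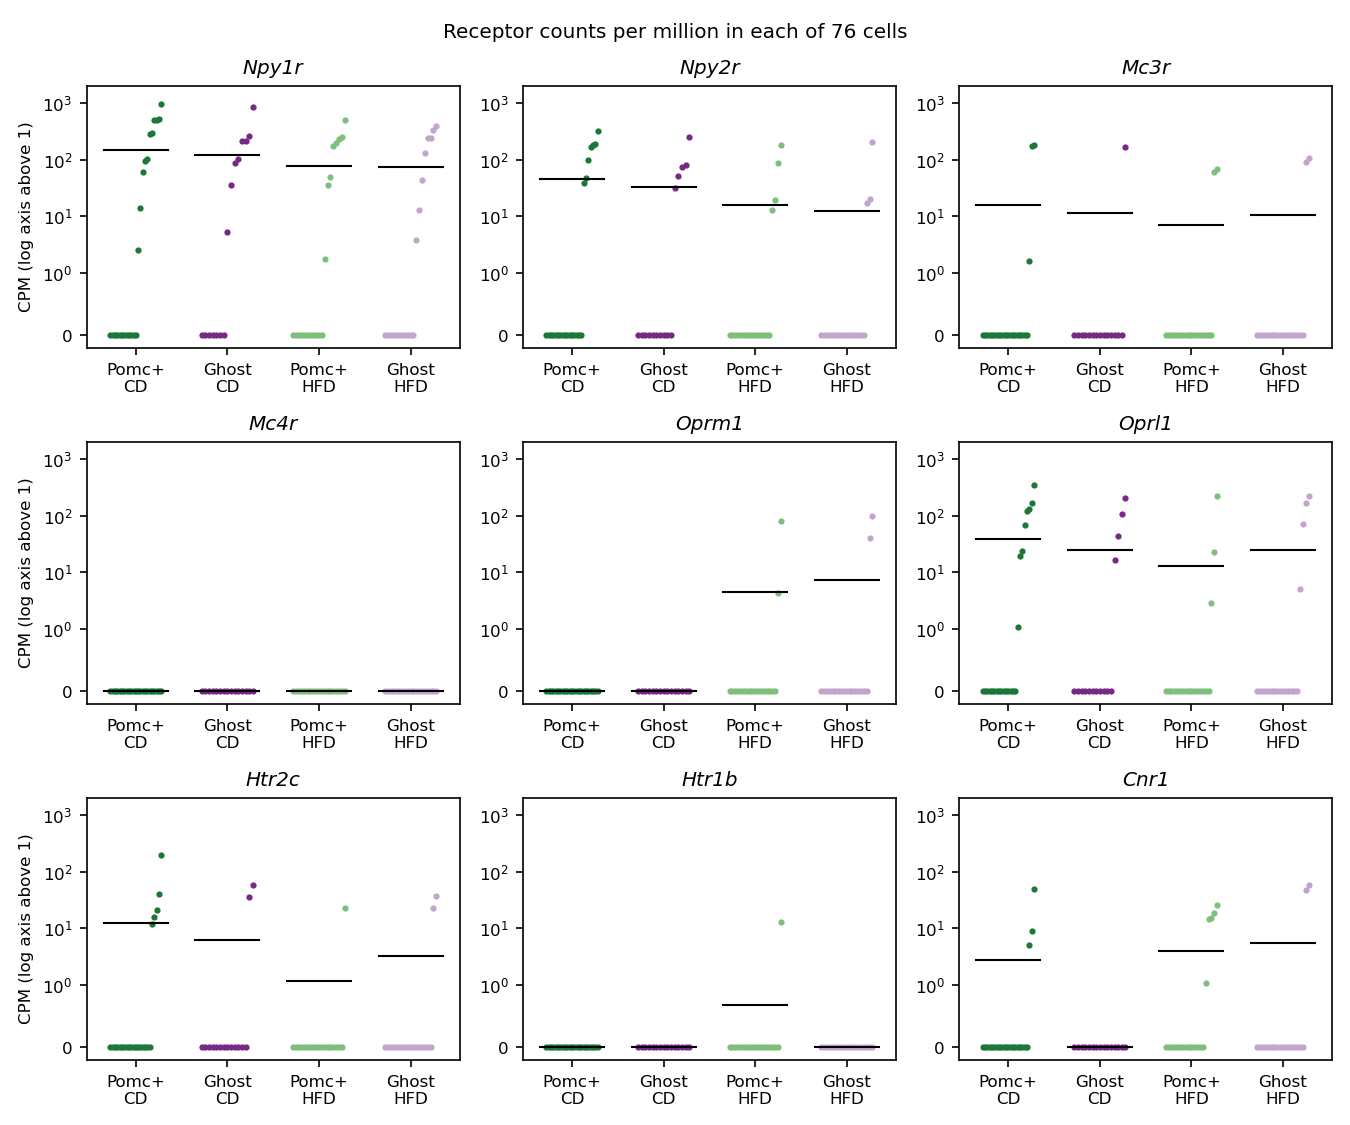
CPM of the 9 receptors in each of the 76 cells (vertical axis, logarithmic above 1 and linear below), 1 dot per cell, sorted within each group, with the mean of the group, zeros included, as a line. Most cells sit at 0 for every gene, and Mc4r is at 0 in all 76.

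Of the melanocortin receptors, Mc4r (ENSMUSG00000047259, chromosome 18) was at 0 in each of the 76 cells. The exact interval of the share of cells with a count reached up to 4.74% (3 of 76 would be 3.95%), shallow cells included, and 3 counts of the summed total would be 0.0912 CPM. Mc3r, which Pomc and AgRP neurons are known to carry as a receptor for their own system (ENSMUSG00000038537, chromosome 2), was counted in 8 cells (10.5%, interval 4.66 to 19.7). In Pomc+ CD cells these had 1.63, 177 and 184 CPM, and the only Ghost CD cell with a count had 168 CPM. In Pomc+ HFD cells the values were 61 and 68.8 CPM, and in Ghost HFD cells 89.1 and 108 CPM. Apart from cell 707 with its single count, each Mc3r cell had at least 61 CPM, and both labels on both diets held such a cell.

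The 8 Mc3r cells were rich in genes and in Pomc. Their genes counted ran from 5524 to 9144, with a median of 6611.5 against 2548 in the 68 cells without Mc3r. All 8 were among the 38 cells with Pomc at or above its median of 3065 CPM. Within the 38 cells with the most genes, Mc3r was counted in 8 of the 24 with Pomc at or above that median and in 0 of the 14 below it. The 4 cells with Oprm1 shared these traits, with a median of 8249.5 genes and Pomc at or above its median in all 4. Of these 4, however, 2 (cells 638 and 671) were themselves Mc3r cells. With 3 Mc3r cells among 34 Ghost and 5 among 42 Pomc+ cells, the shares were 8.82% (interval 1.86 to 23.7) and 11.9% (interval 3.98 to 25.6). Thinning to 40000 counts gave 10.2% of 29 Ghost and 10.1% of 39 Pomc+ cells, as shallower cells were left out. These intervals cover counting error over cells only, and how the few Mc3r cells divide over mice is not known. A difference in share of Mc3r between the labels was not tested.

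Of the opioid family, Oprl1, the nociceptin receptor (ENSMUSG00000027584, chromosome 2), was counted in 19 cells (25%, interval 15.8 to 36.3). These were 8 of 23 Pomc+ CD, 4 of 15 Ghost CD, 3 of 19 Pomc+ HFD and 4 of 19 Ghost HFD cells. In the counted cells it ran from 1.09 to 343 CPM in Pomc+ CD, with a median of 94.0, and from 16.2 to 207 CPM in Ghost CD cells, with a median of 74.8. The 3 Pomc+ HFD cells had 2.81, 23 and 218 CPM, and the Ghost HFD cells ran from 5.04 to 226 CPM with a median of 118. The mean of 12.8 CPM in Pomc+ HFD against 38 CPM in Pomc+ CD cells gave a log2 ratio of -1.57, and cell 672 held 89.4% of the former, so that the ratio was -4.73 without it. Without the Pomc+ CD cell 630 it was -0.91. In Ghost cells the means of the diets were nearly equal, 24.5 on HFD and 24.8 CPM on CD, but single cells decided this. The log2 ratio ran from -0.90 to 1.05 with 1 cell left out, the highest without cell 661. It was 0.69 when CPM left out the 7 genes counted in every cell.

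Oprm1, the mu-opioid receptor on which the Pomc product beta-endorphin acts (ENSMUSG00000000766, chromosome 10), was counted in 4 cells, all on HFD. Of these, 3 came from 1 stretch of consecutive cell numbers, 637 to 657, and none from the HFD stretches 693 to 698 and 713 to 720. They were the Ghost cells 637 with 98.7 CPM and 671 with 39.6 CPM, and the Pomc+ cells 654 with 79.8 CPM and 638 with 4.21 CPM from 3 counts. None of the 38 CD cells had a count, with an exact interval of up to 9.25% (3 of 38 would be 7.89%), and the interval of 4 in 38 HFD cells began at 2.94%. The shares on the diets therefore overlapped in their counting error. Mean CPM on HFD was 4.42 in Pomc+ and 7.28 in Ghost cells. With CD set at 3 counts, the CPM of summed counts was 16.6-fold higher on HFD in Pomc+ cells and 23.9-fold higher in Ghost cells. In Pomc+ cells 1.25-fold, from 3 counts, was left without cell 654, and in Ghost cells 2.37-fold without cell 637. Oprm1 shares 1.19% of its exon bases with a gene on the opposite strand, Ipcef1, and how the counting treated strand is not given in the sources used here.

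Of the serotonin receptors, Htr2c, which excites Pomc neurons (ENSMUSG00000041380, chromosome X), was counted in 10 cells with 149 counts in all. There were 5 Pomc+ CD, 2 Ghost CD, 1 Pomc+ HFD and 2 Ghost HFD cells. The 5 Pomc+ CD cells ran from 12 to 198 CPM with a median of 21.2, and cell 686 held 69.1% of that group's summed CPM from 10 counts. The Ghost CD cells had 36.1 and 57.7 CPM, the Pomc+ HFD cell 22.3 CPM, and the Ghost HFD cells 23.1 and 37.6 CPM. The log2 ratio of HFD to CD in Pomc+ cells was -3.41, with -1.78 left without cell 686, and it was -1.02 with summed counts. Without cell 651, the only Pomc+ HFD cell with a count, it was -4.92, with HFD then set at 3 counts, which is no bound. Of the 3 Pomc+ cells with the lowest cell numbers, 630 to 632, each had a count, so these 3 cells from 1 stretch of the numbering made up most of the Pomc+ CD cells with Htr2c. Htr1b, an inhibitory serotonin receptor known from AgRP neurons (ENSMUSG00000049511, chromosome 9), was counted in 1 cell only, cell 642 (Pomc+ HFD), with 15 counts or 13 CPM. As 18% of its exon bases overlap a gene on the opposite strand, D430036J16Rik, that value is uncertain.

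Cnr1, the CB1 cannabinoid receptor that dampens transmitter release (ENSMUSG00000044288, chromosome 4), was counted in 10 cells with 155 counts. It was counted in 3 of 23 Pomc+ CD (13%, interval 2.78 to 33.6), 0 of 15 Ghost CD (interval 0 to 21.8, where 3 of 15 would be 20%), 5 of 19 Pomc+ HFD (26.3%, interval 9.15 to 51.2) and 2 of 19 Ghost HFD cells (10.5%, interval 1.30 to 33.1). The Pomc+ CD cells had 5.02, 8.83 and 49.3 CPM, the Pomc+ HFD cells ran from 1.06 to 25.1 CPM with a median of 15.3, and the Ghost HFD cells had 47.9 and 57.8 CPM. The Ghost cells 655 and 656 thus had values near the highest Pomc+ cell, although they counted only 1257 and 1677 genes. Of the HFD cells with Cnr1, 4 Pomc+ and both Ghost cells came from the stretch 637 to 657, which held 21 of the 38 HFD cells. The stretch 713 to 720 had 1, and 670 to 673 and 693 to 698 had 0. With a minimum of 5 counts, 3 of 42 Pomc+ and 2 of 34 Ghost cells remained. Thinning to 40000 counts gave 9.07% of the 39 Pomc+ cells at least that deep, from 19% of 42, beside 6.16% of 29 Ghost cells. At 100000 counts, with more of the shallow cells left out, the shares were 17.7% and 8.68%.

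**Figure D2:**
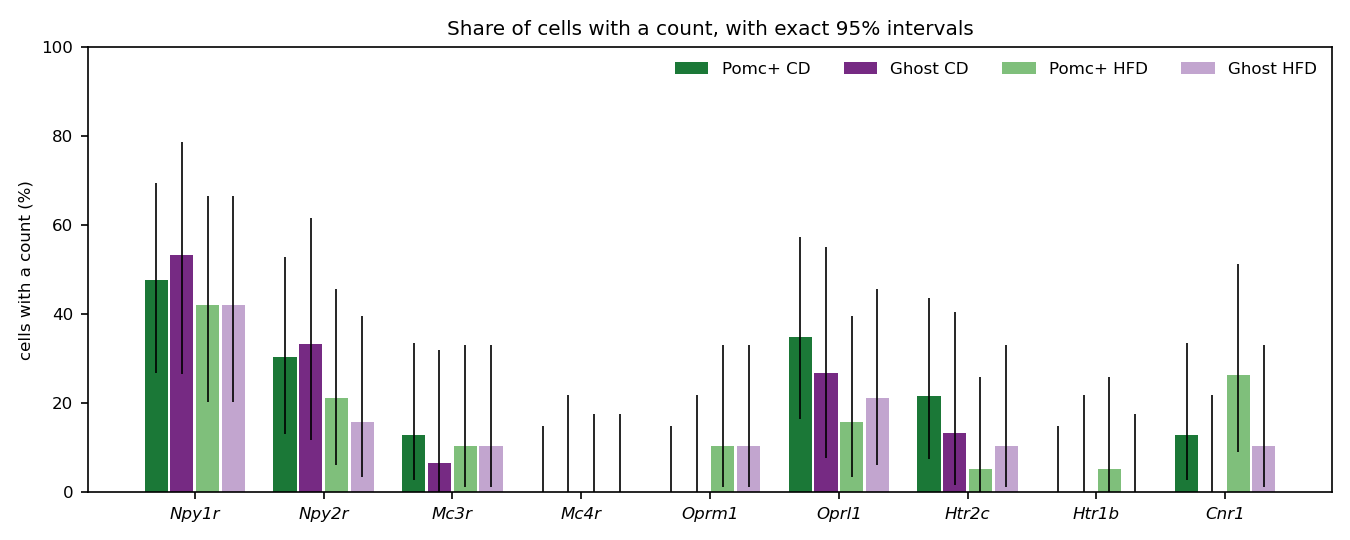
Share of cells with a count of each receptor (vertical axis, percent) in the 4 groups, as bars with exact 95% intervals. The intervals of the 4 groups overlap for each of the 9 genes, and the intervals of groups without a cell start at 0.

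Levels of different genes can be compared only per length. Mean CPM over the 76 cells per kilobase of exon was 30.3 for Npy1r, 8.06 for Npy2r, 6.87 for Oprl1, 4.31 for Mc3r, 0.654 for Htr2c, 0.497 for Cnr1, 0.364 for Oprm1 and 0.0362 for Htr1b, with Mc4r at 0. Part of this order turned between the diets. On CD, Npy2r had 11.9, Oprl1 8.76, Htr2c 1.07, Cnr1 0.258 and Oprm1 0. On HFD, Oprl1 had 4.98, Npy2r 4.22, Cnr1 0.737, Oprm1 0.728 and Htr2c 0.234. Cell 686 held 42.7% of the summed CPM of Htr2c over all cells. The SD over cells exceeded the mean for each counted gene, for example 65 against 27.2 CPM for Npy2r, and the order was not tested.

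Between the labels, the members past 2-fold in mean CPM were not the same under other scalings, so that 1 lower member on CD became 5 with the authors' normalized counts and 3 with summed counts. All genes moved as well, from 3812 of 12119 lower on CD to 5591 with normalized and 4826 with summed counts. Over both diets, mean CPM of 1 member, Oprm1, was at least 2-fold higher in Ghost cells (4.07 against 2.0 CPM) and 0 members were at least 2-fold lower, where 16.4% and 26% of 12265 genes were. The Oprm1 ratio of 2.03 was 39.6 without the Pomc+ cell 654 and 0.600 without the Ghost cell 637, so single cells decided its direction. On CD, 0 members were higher and 1 was lower, beside 23.3% and 31.5% of all genes. This was Cnr1, with 2.75 CPM in Pomc+ and no count in Ghost cells. With Ghost cells set at 3 counts, its CPM of summed counts was 11.1-fold lower, with 1.22-fold left without cell 630. Htr2c, at a ratio of 0.501, lay just short of 2-fold, and its ratio was 1.55 without cell 686. On HFD, 1 member was higher and 1 lower, beside 21.4% and 34.1% of all genes. The higher one was Htr2c (3.20 against 1.17 CPM), which summed counts turned round to a log2 ratio of -1.76. Its ratio of 2.72 was 1.78 and 1.09 without the Ghost cells 671 and 720. Without the Pomc+ cell 651 it was 7.74, with Pomc+ then at 0 and set at 3 counts, which is no bound. The lower one was Htr1b, without a count in Ghost cells, which rests on the 1 Pomc+ cell described above. Htr1b is not among the genes behind these shares, which reach 5 counts or more in 3 or more cells. The median log2 ratio of the members counted in both groups was -0.12 over both diets, -0.49 on CD and 0.61 on HFD. That of all genes was -0.15, -0.06 and -0.23. With normalized counts the middle member was Npy2r at -0.92 over both diets, Htr2c at -1.47 on CD and Npy2r at -0.07 on HFD. The median of all genes was then -0.64, -0.74 and -0.51. With summed counts the middle member on HFD was Npy2r at 1.24, so the direction on HFD depended on the scaling.

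Between the diets, more members passed 2-fold in Pomc+ cells. There, 4 members, Npy2r, Mc3r, Oprl1 and Htr2c, were at least 2-fold lower on HFD, beside 22.4% of 12227 genes, and 2, Oprm1 and Htr1b, were called higher with CD at its limit of 3 counts, beside 28.6%. The call of Htr1b rests on 1 cell. Mc3r had means of 6.83 against 15.7 CPM and a log2 ratio of -1.20. Without either of the CD cells 660 and 665 it was -0.25 and -0.30, and without either of the HFD cells 638 and 670 it was -2.22 and -2.04. In Ghost cells, 1 member, Npy2r, was lower, beside 27.9% of 12048 genes, and 2, Oprm1 and Cnr1, were called higher with CD at its limit, beside 29.8%. With CD set at 3 counts, the CPM of summed Cnr1 counts was 5.93-fold higher, with 2.81-fold left without cell 655 and 3.34-fold without cell 656. Both cells came from the stretch 637 to 657. The median log2 ratio of HFD to CD over the members counted on both diets was -1.36 in Pomc+ and -0.70 in Ghost cells. It was -1.07 and -0.11 with groups at 0 set at that limit, against 0.12 and -0.07 over all genes. With the authors' normalized counts, the middle value in Ghost cells was 0.12 (Npy1r and Mc3r), so the direction turned. In Pomc+ cells it lay between Mc3r at -1.33 and Npy2r at -1.14. The medians of all genes were then 0.07 in Pomc+ and 0.25 in Ghost cells. Both label comparisons within a diet use the same cells as the diet comparisons.

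Transcripts of other cell types also differed between the groups. The summed level of 6 microglial markers had a mean of 192 CPM in Pomc+ CD and 1248 CPM in Pomc+ HFD cells, and of 110 CPM in Ghost CD and 973 CPM in Ghost HFD cells. Single cells weighed on these means, as the medians were 0.688, 264, 0 and 278 CPM and the highest cells had 1784, 9736, 801 and 6013 CPM in the same order. All 6 microglial markers were called higher on HFD in each label, beside 28.6% of all genes in Pomc+ and 29.8% in Ghost cells. Of the 6, 2 were at 0 in Pomc+ CD and 1 at 0 in Ghost CD cells, and Ctss had the highest mean over all cells at 254 CPM. The 6 astrocyte markers summed to means of 829 CPM in Pomc+ CD, 374 in Ghost CD, 1002 in Pomc+ HFD and 256 CPM in Ghost HFD cells (medians 445, 212, 670 and 155), with none at 0 in any group and Aldoc the most abundant. Of these 6, 4 were at least 2-fold lower in Ghost cells over both diets, beside 26% of all genes. On CD 5 were lower, beside 31.5%, and on HFD 4, beside 34.1%, and none was higher in these comparisons. Of the 6 microglial markers, 3 were lower in Ghost cells over both diets, 3 on CD and 3 on HFD, with 1 higher on CD. The 5 oligodendrocyte markers summed to means of 206, 214, 573 and 366 CPM in Pomc+ CD, Ghost CD, Pomc+ HFD and Ghost HFD cells (medians 105, 152, 166 and 304, with 5166 CPM in the highest Pomc+ HFD cell), with Mbp the most abundant over all cells and 2 of the 5 at 0 in Ghost CD cells. The 4 tanycyte markers summed to means of 116, 75.4, 144 and 59.1 CPM (medians 10.9, 9.94, 48 and 9.27), most of it Vim. Rax and Col23a1 were at 0 in Pomc+ CD and Rax and Crym in Ghost CD cells. The 3 endothelial markers summed to a mean of at most 16.3 CPM, in Ghost HFD cells, where 1 cell with 310 CPM held all of it. Their part in the receptor values was not tested.

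In single cells, 27 of the 76 had no count of any of the 9 receptors, 22 had 1, 9 had 2, 9 had 3, 6 had 4 and 3 had 5. The median was 1 in each of the 4 groups, and the highest was 5 in Pomc+ CD, Pomc+ HFD and Ghost HFD cells and 4 in Ghost CD cells. Mean numbers were 1.61 in Pomc+ CD, 1.33 in Ghost CD, 1.37 in Pomc+ HFD and 1.21 in Ghost HFD cells, with an SD over cells between 1.29 and 1.67. When cells were thinned to 40000 counts, with 8 shallower cells left out (2, 3, 1 and 2 by group), the expected means were 1.38, 1.25, 0.978 and 1.04.

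The number of receptors went with the number of genes a cell yielded. Cells without a receptor had a median of 1783 genes, cells with 1 had 2581.5, cells with 2 had 3383, cells with 3 had 5886, cells with 4 had 6261 and cells with 5 had 8762. In the 38 cells with the fewest genes the median was 0 receptors and 22 cells had none, and in the 38 with the most genes it was 2 and 5 cells had none. Among the cells rich in genes, the mean was 2.43 in 23 Pomc+ and 2.13 in 15 Ghost cells, and among those poor in genes it was 0.368 and 0.579 in 19 cells of each. Npy1r was the most common member in both, with 27 cells among the rich and 8 among the poor, whereas Mc3r and Oprm1 were counted only among the rich.

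Co-detection was common among the peptide receptors. Of the 36 pairs of members, 22 had at least 1 cell with a count of both. Among the 21 pairs of the 7 receptors counted in at least 4 cells, peptide receptors or not, 20 had such a cell. Npy1r and Npy2r met in 14 cells, which was 73.7% of the Npy2r cells and 40% of the Npy1r cells, and 6 of the 14 were Ghost. Among the 57 cells without Npy2r, 21 had Npy1r. Mc3r met Npy1r in 7 of its 8 cells and Npy2r in 7 of its 8 cells, and each of the 8 held counts of at least 1 of these NPY receptors. Npy2r and Oprl1 met in 13 cells, 68.4% of each, and Npy1r and Oprl1 also in 13 cells. Each of the 4 Oprm1 cells had Npy1r.

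Much of this overlap lay in cells rich in genes. Of the 14 cells with both NPY receptors, 13 were among the 38 with the most genes, where 27 had Npy1r and 17 had Npy2r. Within those 38 cells, Npy1r was counted in 13 of the 17 Oprl1 cells and in 14 of the other cells. Npy2r was counted in 13 of the 17 Oprl1 cells and in 4 of the other cells. With a minimum of 5 counts for both genes, the pairs of Npy1r with Npy2r, Npy1r with Oprl1 and Npy2r with Oprl1 met in 13, 10 and 11 cells. The share of these pairs that gene number accounts for was not tested.

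Cnr1 met Mc3r in 0 and Npy2r in 2 of its 10 cells, where 10.5% and 25% of all cells had these genes. It met Npy1r in 6, all of them Pomc+, of which 2 remained with a minimum of 5 counts for both genes. The Ghost cells 655 and 656 had no other member. Median Pomc was 1209 CPM in the 10 cells with Cnr1 and 3528 CPM in the 66 without, while it was 7350 against 1329 CPM for Npy1r and 8400 against 2087 CPM for Npy2r. The Cnr1 cells had a median of 4429.5 genes against 2615.5 in the others, and 4 of the 10 had Pomc at or above its median. Htr2c met Npy2r in 3 of its 10 cells and Oprl1 in 5.

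**Figure D3:**
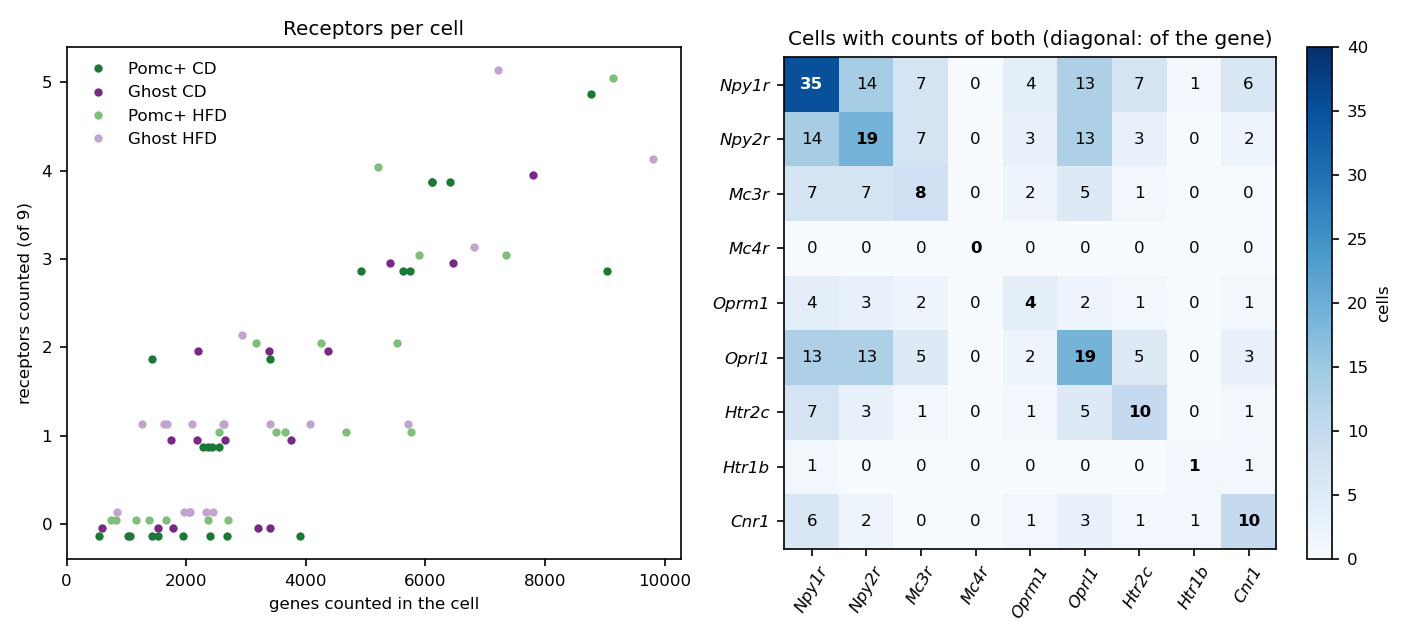
Left, the number of the 9 receptors counted in each of the 76 cells (vertical axis, groups set slightly apart) against the number of genes counted (horizontal axis). Right, the number of cells with counts of both genes of a pair, with the number of cells with each gene on the diagonal, where Npy1r has 35 and the pair of Npy1r and Npy2r has 14.

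Receptor cells were also described by other transcripts they held. Npy1r was counted in 27 of the 38 cells with Pomc at or above its median and in 8 of the 38 below it, and within cells rich in genes in 22 of 24 and in 5 of 14. For Oprl1 the same counts were 12 and 7 of 38, and within cells rich in genes 11 of 24 and 6 of 14. The split by Pomc was wider for Npy1r than for Oprl1 in these counts, a difference that was not tested. Agrp was counted in 9 cells, and Npy1r in 6 of these (66.7%) and in 29 of the 67 others (43.3%), but within cells rich in genes in 4 of 7 and in 23 of 31. Npy was counted in 17 cells, and Npy1r in 7 of these (41.2%) and in 28 of the 59 others (47.5%), and within cells rich in genes in 5 of 10 and in 22 of 28.

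Overlap with receptors for metabolic hormones was counted for each member, and no difference among members was tested. Among the 19 cells with the insulin receptor gene Insr, 13 had Npy2r, beside 6 of the 57 without it. Within cells rich in genes these counts were 13 of 16 and 4 of 22. Of the same 19 cells, 14 had Npy1r, 11 had Oprl1, 6 had Mc3r and 5 had Cnr1, beside 21, 8, 2 and 5 of the 57. Among the 18 cells with Glp1r, 10 had Npy2r, beside 9 of 58, and within cells rich in genes 10 of 13 and 7 of 25. Lepr was counted in 10 cells, of which 7 had Oprl1, beside 12 of 66, and within cells rich in genes 6 of 8 and 11 of 30. Htr2c was counted in 0 of the 10 Lepr cells, beside 10 of 66, but in 3 of the 18 Glp1r cells, beside 7 of 58. Cnr1 was counted in 2 of the 18 Glp1r cells, beside 8 of 58, and in 2 of the 10 Lepr cells, beside 8 of 66. Oprl1 was in 8 of the 18 Glp1r cells, beside 11 of 58, and Npy2r in 5 of the 10 Lepr cells, beside 14 of 66. Gad1, which makes an enzyme for GABA synthesis, was counted in 42 cells with a median of 4225.5 genes. Of these, 17 had Oprl1, beside 2 of the 34 others, and within cells rich in genes 16 of 32 and 1 of 6. The other glutamate decarboxylase gene, Gad2, was counted in 47 cells, of which 14 had Oprl1, beside 5 of the 29 others. Within cells rich in genes these were 13 of 31 and 4 of 7, the other way round from Gad1. The glutamate transporter gene Slc17a6 was counted in 19 cells with a median of 5209 genes, of which 12 had Npy1r and 9 had Oprl1, beside 23 and 10 of the 57 others. Within cells rich in genes these were 11 and 9 of 14, and 16 and 8 of 24. Tbx3 was counted in 34 cells, of which 15 had Npy2r, beside 4 of 42, and within cells rich in genes 15 of 28 and 2 of 10. Cartpt, counted in 73 cells, was counted in every cell with Npy1r, Npy2r, Mc3r, Oprm1, Oprl1, Htr2c or Cnr1.

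The relatives of the 9 receptors were counted sparsely. Of 23 family genes, 15 had a count and 2 were counted in at least 10 cells. Mrap2, an accessory protein that modulates melanocortin receptors, was counted in 21 cells with means of 51.8 CPM in Pomc+ CD, 25.6 in Ghost CD, 27 in Pomc+ HFD and 12.1 CPM in Ghost HFD cells. Npy5r, a further NPY receptor, was counted in 18 cells with means of 29.1, 28.6, 35.1 and 5.47 CPM in the same order. The 8 without a count were Mc2r, Mc5r, Npy4r, Npy6r, Htr1f, Htr5b, Cnr2 and Gpr55. Of the 6 that reached 5 counts or more in 3 or more cells, 2 were called higher and 3 lower in Ghost cells over both diets, beside 16.4% and 26% of all genes. On CD, 3 were higher and 2 lower, beside 23.3% and 31.5%, and on HFD 2 and 4, beside 21.4% and 34.1%. Between the diets, 1 was higher and 3 lower on HFD in Pomc+ cells, beside 28.6% and 22.4% of all genes, and 0 and 4 in Ghost cells, beside 29.8% and 27.9%.

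Among 16 ligand and ligand-enzyme genes, 14 had a count and 7 were counted in 10 cells or more, from 11 for Daglb to 73 for Pomc. Pdyn, the precursor of dynorphins, was counted in 32 cells with means of 221, 20.4, 63.3 and 46 CPM in Pomc+ CD, Ghost CD, Pomc+ HFD and Ghost HFD cells. Ddc, which makes serotonin and dopamine from their precursors, was counted in 24 cells with means of 23.1, 16, 37.7 and 36 CPM. Tph2 and Slc6a4, the enzyme and the transporter of serotonin neurons, had no count. Of the 12 that reached 5 counts or more in 3 or more cells, 3 were called higher and 5 lower in Ghost cells over both diets, 3 and 4 on CD, and 4 and 4 on HFD, beside the same shares of all genes as for the family. On HFD against CD, 6 were higher and 2 lower in Pomc+ cells, beside 28.6% and 22.4% of all genes, and 8 and 1 in Ghost cells, beside 29.8% and 27.9%.

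The transducers were counted more widely. All 31 genes had a count, and 27 were counted in 10 to 60 cells. Gng3, a G protein gamma subunit, was counted in 60 cells with means of 223, 240, 104 and 244 CPM in Pomc+ CD, Ghost CD, Pomc+ HFD and Ghost HFD cells. Gnb1, a beta subunit, was counted in 58 cells with means of 212, 266, 61.4 and 162 CPM, and Gnao1, the alpha subunit of Go, in 57 cells with means of 190, 246, 131 and 265 CPM. Over the list, 6 genes were called higher and 5 lower in Ghost cells over both diets, beside 16.4% and 26% of all genes, whereas on CD it was 10 and 4, beside 23.3% and 31.5%, and on HFD 8 and 10, beside 21.4% and 34.1%. Between the diets, 11 were called higher and 4 lower on HFD in Pomc+ cells, beside 28.6% and 22.4% of all genes, and 5 and 8 in Ghost cells, beside 29.8% and 27.9%.

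For the 3 members counted in at least 15 cells, the genes with the most similar pattern over the 76 cells were found among 6867 genes by Spearman's rho of log2(CPM + 1). Npy2r was closest to Eprs (rho 0.79, with 18 of the 19 Npy2r cells among its 24), Kcnc2 (0.66) and Faf2 (0.64). Npy1r was closest to Gnptg (0.68), Hook3 (0.64) and Jakmip1 (0.62), and Oprl1 to Aspscr1 (0.66), Rrn3 (0.65) and Zw10 (0.65). Npy1r, Npy2r and Oprl1 themselves had a rho of 0.54, 0.53 and 0.55 with the number of genes counted. For the genes named beside them it ran from 0.49 (Faf2) to 0.65 (Hook3), and the part of gene number in these likenesses was not tested.

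Cells were numbered in 8 stretches of a single diet each, and the shares of Npy1r differed among them. Of the CD stretches, 5 of 6 cells had Npy1r among cells 630 to 636, 8 of 12 among cells 658 to 669, 3 of 8 among cells 684 to 692 and 3 of 12 among cells 699 to 712. Of the HFD stretches, 8 of 21 had it among cells 637 to 657, 2 of 4 among cells 670 to 673, 3 of 5 among cells 693 to 698 and 3 of 8 among cells 713 to 720. Median genes per cell were 4748.5, 3649, 2410 and 1843.5 in the CD stretches and 2330, 4344.5, 2624 and 3217 in the HFD stretches, in that order. The order of the shares matched that of the medians on CD and did not on HFD. What the stretches stand for is not given in the sources used here, and none holds cells of both diets.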

How the data were processed

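RNA of each patched cell was amplified with the SMART-Seq Single Cell kit, which does not mark strand, and libraries were made with Nextera XT. The submitters' processing notes name cutadapt 2.10, STAR 2.7.5a, DESeq2, GRCm38 and mm10. The counting program and its annotation are not given in the sources used here. The authors deposited whole-number counts per Ensembl gene and a table of normalized counts (unit signal), which equal the deposited counts divided by 1 factor per cell. Of 56980 identifiers, 52073 matched a symbol. Positions and exon lengths are from GENCODE M21, which held 52125 identifiers, those outside it taking 36.5% of counts.

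CPM was computed on all counts of a cell. All 76 cells were kept, and no 2 had identical counts. Called means a ratio of mean CPM of at least 2-fold, with a group without counts set at 3 counts of its summed total, and no bound is meant by it. The background was genes reaching 5 counts or more in 3 or more cells. Thinning used the hypergeometric expectation at 40000 and 100000 counts and left out cells with a lower total. Named genes were the members, up to 3 genes per pathway role with the most cells, and the 3 closest genes by rho for members in at least 15 cells. Members and lists were chosen with earlier results of these data known. Alternatives are given in the closing section. Steps were tested on simulated data, where the first pass mark for planted ratios was not met and was replaced, after this was seen, by one in units of counting error. Python 3.11.15 was used with numpy 2.4.6, pandas 2.3.3, scipy 1.17.1 and matplotlib 3.10.9.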

Additional observations from a re-analysis of the deposited data

How the results depend on the processing

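The median number of receptors per cell, 1 in each group and label, stayed at 1 with a minimum of 5 counts and without 5 cells with under 1000 genes or over 20% mitochondrial counts. Thinned, it ran from 0.734 to 1 at 40000 counts and from 0.999 to 1.65 at 100000. Counts of members past 2-fold moved with scaling, and the cause was not tested. Ghost against Pomc+ over both diets, 1 member was higher and 0 were lower. The authors' normalized counts gave 0 and 3, CPM leaving out the 7 genes that all cells had gave 1 lower, summed counts gave 2 lower, and leaving out 1 cell gave 0 to 1 higher and 0 to 1 lower. Of all genes, 2015 were higher and 3194 lower, and 1393 and 4699 with normalized counts. Without those 7 genes it was 2422 and 3300, and with summed counts 1695 and 3183. On CD, the 1 lower member became 5 with normalized counts, 3 with summed counts and 1 to 3 with 1 cell left out. The 3812 lower of all genes became 5591 with normalized and 4826 with summed counts. On HFD, the 1 higher member became 3 without those 7 genes, 4 with summed counts and 0 to 2 with 1 cell left out, and the 1 lower member became 0 with normalized counts, 2 with summed counts and 0 to 2 with 1 cell left out. The 2607 higher of all genes became 2984 without those 7 genes and 3054 with summed counts. The 4156 lower ones became 4789 with normalized and 3373 with summed counts. For HFD against CD in Pomc+ cells, the 2 higher members became 1 with normalized counts and 1 to 3 with 1 cell left out. The 3497 higher of all genes became 3761 with normalized counts. In Ghost cells, the 1 lower member became 2 without those 7 genes and 1 to 3 with 1 cell left out. The 3358 lower of all genes became 3501 without those 7 genes.

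Of ratios past 2-fold, those that changed sign were Oprm1 in Ghost against Pomc+ over both diets (log2 ratio -0.74 to 5.31 with 1 cell left out), Htr2c on HFD (-1.76 with summed counts) and Npy2r for HFD against CD in Ghost cells (0.28 with normalized and 0.93 with summed counts). Normalized counts moved the median log2 ratio of all genes, Ghost against Pomc+, by -0.49 over both diets, -0.68 on CD and -0.28 on HFD. Summed counts moved it by -0.49 on CD and 0.24 on HFD, and leaving out the 7 genes by 0.12 on HFD. For HFD against CD, summed counts moved it by -0.39 in Pomc+ and 0.30 in Ghost cells, and normalized counts by 0.31 in Ghost cells. Normalized counts took the share of calls that were higher from 38.7% to 22.9% over both diets and from 42.6% to 24.3% on CD, where summed counts gave 26.4%. For HFD against CD, it went from 56.1% to 41.3% in Pomc+ cells with summed counts, and from 51.7% in Ghost cells to 62.7% with normalized and 62% with summed counts. Of the alternative log2 ratios of single members, 96 moved by less than 1.5-fold and 84 by more. Among all 180, 35 had the other sign, in 22 of 30 ratios, so most directions of members depended on the choice or on 1 cell. Of the alternative shares of cells, 193 stayed within the interval of the main share and 76, nearly all from stretches of few cells, did not. Cells are not matched to one another by their labels. Each stretch holds both eGFP labels, but Ghost and Pomc+ cells were not compared within stretches. No result comes from a test.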
